A study of Rattus norvegicus with 10 samples.

Results

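The genes described here make cholesterol from isoprenoid units or restrain that synthesis, and they were read in rat pancreatic islets on expression arrays. The rule took each probe set annotated to a single symbol among 8 genes: Hmgcs1, Idi1, Fdft1, Sqle, Lss, Cyp51, Dhcr7 and Insig1. Of these, 7 genes were measured, by 11 probe sets, among 14217 genes with a probe set of a single symbol, and Hmgcs1 was not analysed here. The 7 are 6 enzymes of sterol synthesis and 1 regulator, Insig1. None of them takes up cholesterol, so uptake is described only through a separate list of pathway genes.

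Islet RNA was profiled on 10 Affymetrix arrays, 2 for each of 5 groups of male rats aged 40 days, to compare islets of BB rats, a model of autoimmune diabetes, with islets of F344 rats before insulitis, that is, before immune cells enter the islet. DR+/+ and JB rats are BB rats without the lyp mutation, in which diabetes can be induced but does not arise unprovoked. JBlyp/lyp rats are homozygous for the lyp mutation and diabetes prone. F344 and F344lyp rats are the healthy controls, the latter carrying the lyp mutation. The lyp mutation lies in a gene of the Gimap family and lowers the number of T cells. The labels derive DR+/+ and JBlyp/lyp animals from DRlyp/+ breeders and do not say how JB is related to DR, so a difference between DR+/+ and JB is a difference between those groups only. Islets came from fasted animals by collagenase digestion and a density gradient. The labels call the arrays biological replicates without saying whether each was 1 animal or a pool, so p-values measure only the spread between these samples.

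Cholesterol is built from acetyl-CoA through mevalonate, the isoprenoid pyrophosphates, squalene and lanosterol. When sterols in the endoplasmic reticulum run low, Scap escorts the transcription factor precursor Srebf2 to the Golgi, where proteases release its active part, and genes of synthesis and uptake are transcribed together. When sterols are plentiful, Insig1 holds Scap in the endoplasmic reticulum, and Insig1 is itself a target of the same factors. In beta cells, membrane cholesterol affects insulin granules and secretion.

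Promoter sequence was read from RefSeq (assembly GRCr8), as the 250 bases before each gene's start, for 5 of the 7 genes: Idi1, Lss, Cyp51, Dhcr7 and Insig1. A CCAAT box, the site of the factor NF-Y that works beside sterol regulated factors at such promoters, was searched as CCAAT on both strands and matched in 3 of the 5 (Idi1, Lss and Insig1) and in 34.0% of 33469 promoters of the same length. These 3 are shown because they set Idi1 and Lss, whose levels followed each other across the arrays, beside Insig1, whose level did not. Sequences run 5′ to 3′ on the gene's strand, and capitals mark the match, which lies on the opposite strand and so reads ATTGG. They are Idi1 at chr17:66547525-66547774 (minus strand), Lss at chr20:12118231-12118480 (minus strand) and Insig1 at chr4:8057770-8058019 (minus strand).
Idi1: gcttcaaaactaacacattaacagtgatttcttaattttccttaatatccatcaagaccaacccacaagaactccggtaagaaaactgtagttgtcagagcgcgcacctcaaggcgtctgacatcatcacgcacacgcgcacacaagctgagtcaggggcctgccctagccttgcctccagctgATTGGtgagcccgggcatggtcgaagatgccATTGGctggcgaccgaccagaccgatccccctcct
Lss: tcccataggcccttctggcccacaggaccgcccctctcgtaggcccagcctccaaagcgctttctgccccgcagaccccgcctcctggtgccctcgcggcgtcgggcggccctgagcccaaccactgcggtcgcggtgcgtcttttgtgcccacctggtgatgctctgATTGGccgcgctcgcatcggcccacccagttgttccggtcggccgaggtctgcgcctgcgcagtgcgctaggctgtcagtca
Insig1: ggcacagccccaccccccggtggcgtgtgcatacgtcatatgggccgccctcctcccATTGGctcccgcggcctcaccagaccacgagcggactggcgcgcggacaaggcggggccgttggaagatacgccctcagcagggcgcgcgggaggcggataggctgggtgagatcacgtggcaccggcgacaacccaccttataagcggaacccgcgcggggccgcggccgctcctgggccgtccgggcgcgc
Idi1 held 2 matches, at 66 to 62 and 35 to 31 bases before the start. Lss held 1 at 82 to 78 bases, and Insig1 held 1 at 193 to 189 bases. The GC box GGGCGG, on both strands, matched in 4 of the 5 (Lss, Cyp51, Dhcr7 and Insig1) and in 30.5% of promoters. A short form of the sterol regulatory element, TCACNCCAC on both strands, matched in 0 of the 5 and in 0.974% of promoters. A match is a run of letters and not a shown site, and no match says only that these letters are not in the window.

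Levels are log2 intensities per probe set (RMA), so a difference of 1 is a change of 2-fold, and levels of different genes are not compared because probe sets differ in brightness. A gene with more than 1 probe set is represented by the one with the highest mean over the 10 arrays. A difference was called at an adjusted p under 0.05 (limma's moderated test on group means, two-sided, Benjamini-Hochberg adjusted over 31042 probe sets), and rose and fell are used only of called differences.

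The DR+/+ arrays stood apart from the other 8 in cell type markers. The insulin genes were bright on all 10 arrays, with Ins1 at 13.86 to 14.27 and Ins2 at 13.42 to 13.98. The mean of 10 beta cell markers was 9.36 to 9.39 in DR+/+ and 11.16 to 11.46 in the other 8 arrays, and all 10 were called lower in DR+/+ than in F344 and 9 of 10 lower than in JB. The mean of 20 acinar markers was 9.41 to 9.44 in DR+/+, 10.65 to 10.95 in JB, 10.32 to 10.90 in JBlyp/lyp, 12.06 to 12.26 in F344 and 12.63 to 12.84 in F344lyp. The mean of 10 endothelial markers (9.62 to 9.66 against 8.32 to 8.77), of 14 stellate and fibroblast markers (9.51 against 8.28 to 8.57) and of 7 mesothelial markers (9.62 against 7.00 to 8.03) was higher in DR+/+ than in every other array. Against F344, 19 of 20 acinar markers were called lower in DR+/+, 7 of 10 endothelial markers higher and 1 lower, 10 of 14 stellate and fibroblast markers higher and 1 lower, and 5 of 7 mesothelial markers higher and 2 lower. No log2 intensity is a true zero, so no marker could be called absent. In bulk RNA, fewer cells of a type and less RNA per cell cannot be told apart. The Gapdh control signal at the 3′ end exceeded that at the 5′ end by 2.75 to 3.71 in the 6 BB arrays and by 2.19 to 2.43 in the 4 F344 arrays. The actin controls ordered the groups differently, with 2.57 to 2.86 in DR+/+, 3.30 to 4.17 in JB and JBlyp/lyp and 2.72 to 3.06 in the F344 arrays, and the Gapdh 3′ signal itself was 8.85 in DR+/+ and 9.89 to 11.48 elsewhere. The part of these differences in the results below was not tested, apart from the values given beside them.

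The 6 enzymes were lower in both DR+/+ arrays than in every other array, while Insig1 was not. Over all 14217 genes, 24.8% were lower in both DR+/+ arrays than in every other array and 18.0% were higher. The enzymes are taken in the order of the pathway.

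Idi1, which isomerises isopentenyl pyrophosphate to dimethylallyl pyrophosphate, had log2 levels of 6.09 and 6.31 in DR+/+, 6.92 and 7.12 in JB, 7.03 and 7.10 in JBlyp/lyp, 6.90 and 6.95 in F344, and 7.05 and 7.33 in F344lyp. The other 4 groups lay close together and neighbouring groups overlapped, with DR+/+ alone below them. Idi1 was lower in DR+/+ than in F344 by a log2 difference of -0.73 (SE 0.15, adjusted p = 0.00487) and than in JB by -0.82 (SE 0.15, adjusted p = 0.00297). A second Idi1 probe set, at 5.84 and 5.41 in DR+/+, 6.33 and 6.91 in JB, 6.34 and 6.36 in JBlyp/lyp, 6.61 and 6.55 in F344 and 6.12 and 7.34 in F344lyp, showed the same order for DR+/+, with differences of -0.95 (adjusted p = 0.0601) and -0.99 (adjusted p = 0.0571) that were not called.

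Fdft1 is squalene synthase, the step that commits farnesyl pyrophosphate to sterols. Its log2 levels were 6.72 and 6.44 in DR+/+, 7.27 and 7.01 in JB, 7.02 and 7.00 in JBlyp/lyp, 7.16 and 7.29 in F344, and 7.67 and 7.47 in F344lyp. DR+/+ was the lowest group and F344lyp the highest, and neither overlapped a neighbour. The difference was -0.65 from F344 (SE 0.16, adjusted p = 0.0103) and -0.56 from JB (SE 0.16, adjusted p = 0.0237). A second Fdft1 probe set, at 6.37 and 6.74 in DR+/+, 6.53 and 6.52 in JB, 6.53 and 6.45 in JBlyp/lyp, 6.52 and 6.44 in F344 and 6.88 and 7.04 in F344lyp, did not share the low DR+/+ level, with differences of 0.08 from F344 (adjusted p = 0.751) and 0.03 from JB (adjusted p = 0.924). The low Fdft1 level of DR+/+ was therefore seen by only 1 of its 2 probe sets.

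Sqle, squalene epoxidase, adds oxygen to squalene and is a rate-limiting step of the pathway. It had the largest DR+/+ difference among the 7 genes on their brightest probe sets. Its log2 levels were 5.26 and 5.70 in DR+/+, 6.83 and 6.97 in JB, 7.04 and 7.39 in JBlyp/lyp, 7.38 and 7.51 in F344, and 7.68 and 7.81 in F344lyp. Group means stepped up in that order, and only JBlyp/lyp and F344 overlapped. The level in DR+/+ was 3.9-fold below that in F344, a log2 difference of -1.96 (SE 0.18, adjusted p = 3.92e-05), and it differed from JB by -1.42 (SE 0.18, adjusted p = 0.000336).

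Lss, lanosterol synthase, folds oxidised squalene into the first sterol ring system. Its log2 levels were 6.51 and 6.59 in DR+/+, 7.10 and 7.31 in JB, 7.59 and 7.71 in JBlyp/lyp, 7.49 and 7.55 in F344, and 7.81 and 8.26 in F344lyp. No neighbouring groups in this order overlapped. The differences of DR+/+ were -0.97 from F344 (SE 0.17, adjusted p = 0.00161) and -0.66 from JB (SE 0.17, adjusted p = 0.0151). A second Lss probe set spanned a narrower range, with 6.82 and 6.50 in DR+/+, 6.87 and 6.88 in JB, 7.13 and 6.94 in JBlyp/lyp, 7.31 and 7.31 in F344 and 6.97 and 6.89 in F344lyp. On it Lss fell against F344 (-0.65, adjusted p = 0.00731), while the difference from JB was -0.21 (adjusted p = 0.33).

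Cyp51, the lanosterol demethylase, showed another order. Its log2 levels were 7.40 and 7.95 in DR+/+, 8.80 and 8.88 in JB, 8.71 and 8.84 in JBlyp/lyp, 8.18 and 8.17 in F344, and 8.15 and 8.08 in F344lyp. DR+/+ was again lowest, but both JB groups stood above both F344 groups with no overlap. The difference of DR+/+ was -1.17 from JB (SE 0.18, adjusted p = 0.00086) and -0.51 from F344 (SE 0.18, adjusted p = 0.0529), the latter not called. A second Cyp51 probe set read 6.06 and 5.97 in DR+/+, 6.41 and 6.55 in JB, 6.68 and 6.53 in JBlyp/lyp, 6.91 and 6.75 in F344 and 7.10 and 7.16 in F344lyp. On that probe set the F344 groups were the higher ones, and DR+/+ was called lower than both F344 (-0.82, adjusted p = 0.00125) and JB (-0.47, adjusted p = 0.0264). Over the 10 arrays, the correlation between the 2 probe sets was 0.194 for Cyp51, against 0.434 for Fdft1, 0.496 for Lss and 0.812 for Idi1, given as a description.

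Dhcr7, 7-dehydrocholesterol reductase, makes cholesterol from its immediate precursor. Its log2 levels were 6.25 and 6.60 in DR+/+, 8.01 and 7.10 in JB, 7.53 and 6.85 in JBlyp/lyp, 7.24 and 7.21 in F344, and 7.94 and 7.90 in F344lyp. The replicates of JB and of JBlyp/lyp were far apart, and both spanned the F344 level. In both of these groups the array with the higher Dhcr7 level, replicate 1, had the lower Insig1 level. The deviations of same-numbered replicates correlated at 0.652 between these groups, so they are not separate instances. F344 and F344lyp showed the same order with closer Dhcr7 levels, and DR+/+ the opposite one. Dhcr7 was lower in DR+/+ than in JB by -1.13 (SE 0.29, adjusted p = 0.017), and its difference from F344, -0.80 (SE 0.29, adjusted p = 0.0645), was not called.

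Insig1, the sterol sensing brake on Scap, had log2 levels of 7.42 and 7.69 in DR+/+, 6.94 and 7.80 in JB, 7.19 and 7.52 in JBlyp/lyp, 7.18 and 7.24 in F344, and 7.35 and 7.72 in F344lyp. Each group overlapped the next in the order of means, and DR+/+ had the highest mean, with both arrays above both F344 arrays. The differences of DR+/+ were 0.35 from F344 (SE 0.26, adjusted p = 0.355) and 0.19 from JB (SE 0.26, adjusted p = 0.657).

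**Figure D1:**
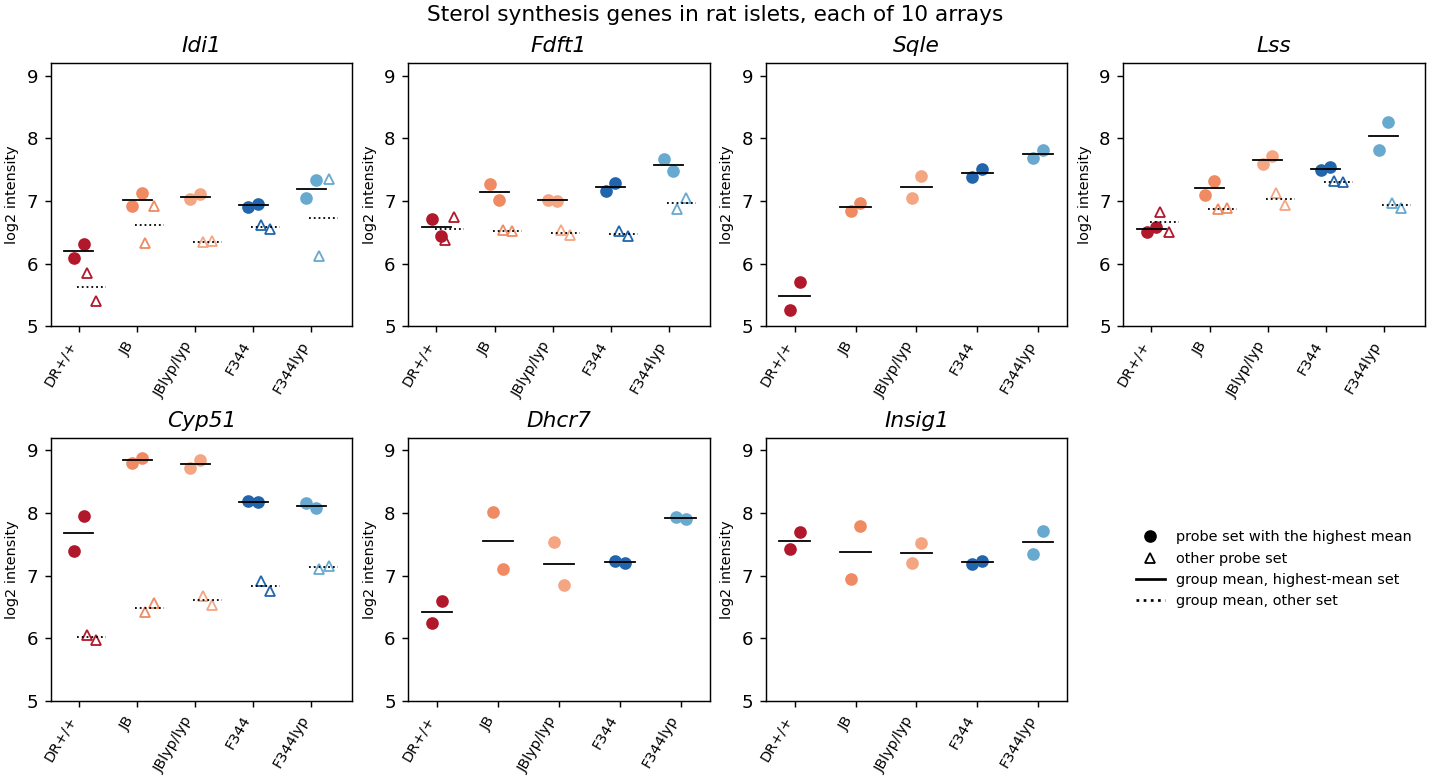
Log2 intensity (y axis) of the 7 genes on each of the 10 arrays, by group (x axis). Filled circles are the probe set with the highest mean and open triangles the other probe set of Idi1, Fdft1, Lss and Cyp51, with solid and dotted lines at their group means. The DR+/+ circles of the 6 enzymes lie below those of all other groups (Sqle 5.26 and 5.70 against 6.83 or more), while Insig1 overlaps between neighbouring groups and the triangles of Cyp51 order the groups differently from its circles.

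Against F344, 4 of the 7 genes fell in DR+/+ (Sqle, Lss, Idi1 and Fdft1), where 23.8% of all genes fell and 16.3% rose. The median difference of the 7 was -0.73, beside -0.06 over all genes. Against JB, 6 of the 7 fell (Sqle, Cyp51, Dhcr7, Idi1, Lss and Fdft1), where 18.4% of all genes fell and 15.5% rose, with medians of -0.82 and -0.04. Both comparisons use the same DR+/+ arrays, so they do not support each other. The beta cell marker mean was lower in the same arrays, at 9.36 to 9.39 against 11.25 to 11.34 in F344 and 11.21 to 11.34 in JB. With the Gapdh difference of each array as a covariate, 0 of the 4 calls against F344 held at an adjusted p under 0.05, with Sqle at -2.34 (adjusted p = 0.0874), Lss at -0.79 (adjusted p = 0.519), Fdft1 at -0.76 (adjusted p = 0.507) and Idi1 at -0.64 (adjusted p = 0.579). The probe sets called over the whole array dropped from 10206 to 90 under that covariate. The Gapdh difference did not overlap between the BB and the F344 arrays, so in this fit it can hardly be told apart from the group difference. Against JB, 4 of the 6 calls held, Fdft1 (-0.53, adjusted p = 0.0989) and Dhcr7 (-0.88, adjusted p = 0.111) not. Single arrays decided several of these calls. Against F344, Fdft1 was not called without DR+/+ replicate 2 (adjusted p = 0.0818) or F344 replicate 2 (adjusted p = 0.0851). Without DR+/+ replicate 2, Cyp51 was called there at -0.78 (adjusted p = 0.00859). Without JBlyp/lyp replicate 1 or 2, Cyp51 (adjusted p = 0.0493 for each) and Dhcr7 (adjusted p = 0.0302 for each) were called as well, which made 6 of the 7, and without JB replicate 1 or 2 Dhcr7 was called (adjusted p = 0.0198 for each). Against JB, Dhcr7 was not called without DR+/+ replicate 1 (adjusted p = 0.117) or JB replicate 1 (-0.67, adjusted p = 0.112). Lss was not called without DR+/+ replicate 1 (adjusted p = 0.0819), DR+/+ replicate 2 (adjusted p = 0.0525) or JB replicate 2 (adjusted p = 0.0844), and Fdft1 not without DR+/+ replicate 2 (adjusted p = 0.153) or JB replicate 1 (adjusted p = 0.142). Sqle and Idi1 were called lower in both comparisons with any 1 array left out.

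**Figure D2:**
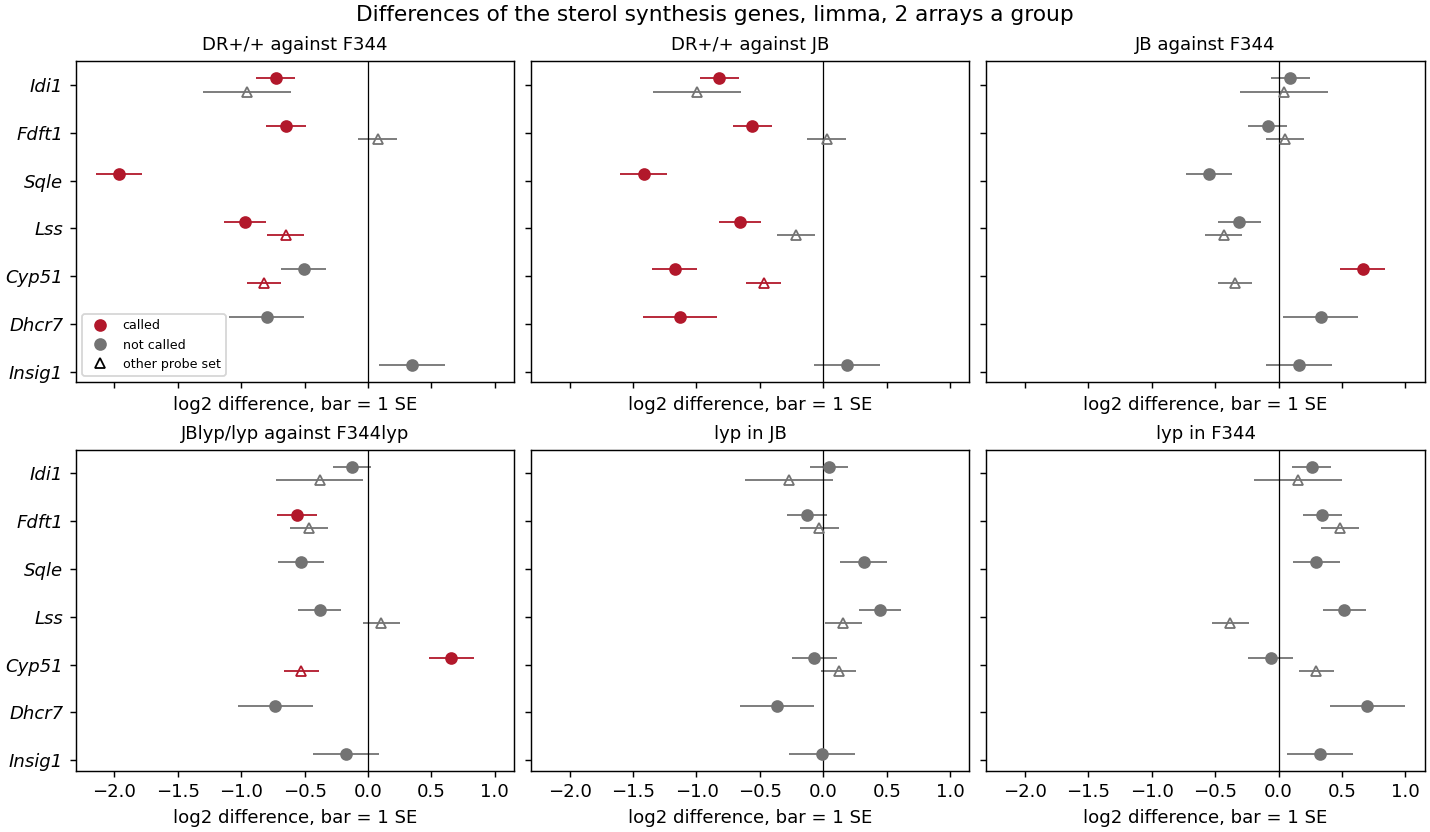
Log2 differences (x axis) of the 7 genes (y axis) in 6 comparisons, a panel each, with bars of 1 standard error of the limma fit. Circles are the probe set with the highest mean and triangles the other probe set, red where called at an adjusted p under 0.05 and grey where not. In the DR+/+ comparisons the circles of the enzymes lie left of 0 (Sqle at -1.96 and -1.42) and Insig1 right of it, while in the JB and JBlyp/lyp comparisons with their F344 counterparts the Cyp51 circle lies right of 0, at 0.66 in each, and its triangle left, at -0.35 and -0.52.

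JB against F344 is the comparison without the lyp mutation, and JBlyp/lyp against F344lyp the one with it. They share no arrays, but they share the error estimated from all 10. Between JB and F344, 1 of the 7 genes was called, Cyp51, which was higher in JB (0.66, SE 0.18, adjusted p = 0.0396), where 4.79% of all genes were called higher and 8.22% lower. The others were Sqle at -0.55 (adjusted p = 0.088), Lss at -0.31 (adjusted p = 0.294), Dhcr7 at 0.33 (adjusted p = 0.553), Insig1 at 0.16 (adjusted p = 0.77), Idi1 at 0.09 (adjusted p = 0.778) and Fdft1 at -0.09 (adjusted p = 0.796). The median of the 7 was 0.09, beside -0.04 over all genes. In the same comparison 17 of 20 acinar markers (10.65 to 10.95 in JB against 12.06 to 12.26) and 6 of 12 macrophage markers (median difference -0.60) were called lower in JB, and their part was not tested.

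The Cyp51 result differed between its probe sets. On the second probe set the difference had the opposite sign, -0.35 (adjusted p = 0.142), and the mean of both probe sets gave 0.16 (adjusted p = 0.487). The call was also lost when any 1 of 6 arrays was left out: JB replicate 1 (adjusted p = 0.0894), JB replicate 2 (adjusted p = 0.143), F344 replicate 1 (adjusted p = 0.205), F344 replicate 2 (adjusted p = 0.19) and F344lyp replicate 1 or 2 (adjusted p = 0.0648 for each). With the Gapdh difference as a covariate the value was 0.17 (adjusted p = 0.999), and quantile normalization (0.58, adjusted p = 0.0604) and a prior variance by level (adjusted p = 0.0506) ended the call as well.

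Between JBlyp/lyp and F344lyp, Cyp51 was called higher in JBlyp/lyp (0.66, SE 0.18, adjusted p = 0.0364) and Fdft1 lower (-0.56, SE 0.16, adjusted p = 0.0415), where 4.70% of all genes were called higher and 11.3% lower. The second Cyp51 probe set was called in the opposite direction (-0.52, SE 0.14, adjusted p = 0.0306), so the 2 probe sets of this gene gave contrary calls in the same comparison. The second Fdft1 probe set pointed the same way as the first (-0.47, adjusted p = 0.074). The remaining genes were Dhcr7 at -0.73 (adjusted p = 0.136), Sqle at -0.53 (adjusted p = 0.0869), Lss at -0.38 (adjusted p = 0.169), Insig1 at -0.17 (adjusted p = 0.712) and Idi1 at -0.13 (adjusted p = 0.641), and the median of the 7 was -0.38 beside -0.04. In the same comparison 18 of 20 acinar markers (10.32 to 10.90 in JBlyp/lyp against 12.63 to 12.84), 10 of 12 macrophage markers (5.56 to 5.74 against 6.61 to 6.64) and 5 of 7 mesothelial markers (7.03 to 7.20 against 7.75 to 8.03) were called lower in JBlyp/lyp. Of the mesothelial markers, 1 was called higher there, Msln (0.70, adjusted p = 0.025). The part of these marker differences was not tested. Both calls were lost without JBlyp/lyp replicate 2 (adjusted p = 0.13 for Cyp51 and 0.12 for Fdft1), F344 replicate 1 or 2 (0.0695 and 0.0753 for each), F344lyp replicate 1 (0.108 and 0.178) or F344lyp replicate 2 (0.181 and 0.101). Without JBlyp/lyp replicate 1, Fdft1 was not called (adjusted p = 0.0767) and Dhcr7 was (-1.07, adjusted p = 0.0383). Both calls were also lost with the Gapdh covariate (Cyp51 0.36, adjusted p = 0.81, and Fdft1 -0.65, adjusted p = 0.63) and in a fit of the compared groups only (adjusted p = 0.0699 and 0.109). Fdft1 was not called with quantile normalization (adjusted p = 0.0735) or a prior variance by level (adjusted p = 0.0638), and the mean of both Cyp51 probe sets gave 0.07 (adjusted p = 0.772).

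The lyp mutation was asked about by JBlyp/lyp against JB and by F344lyp against F344. The labels do not say how JB is related to the breeders of JBlyp/lyp. A difference between JBlyp/lyp and JB is therefore one between those groups, and the part of lyp in it cannot be told apart. JBlyp/lyp against JB gave 0 of 7 genes called by limma, with 1 at an unadjusted p under 0.05 (Lss, 0.45, adjusted p = 0.721). Over all genes 0.00703% were called, and 857 of 14217 were at an unadjusted p under 0.05. In F344lyp against F344, 1.90% of all genes were called, and 2442 of 14217 were at an unadjusted p under 0.05. Of the 7, limma also called 0 there, with 2 at an unadjusted p under 0.05. These were Lss (0.52, adjusted p = 0.173) and Dhcr7 (0.70, adjusted p = 0.293). The other differences in F344 were 0.35 for Fdft1, 0.33 for Insig1, 0.30 for Sqle, 0.26 for Idi1 and -0.06 for Cyp51, with a median of 0.33 beside 0.04 over all genes. The F344lyp arrays were above both F344 arrays in Idi1, Fdft1, Sqle, Lss, Dhcr7 and Insig1, and below them in Cyp51. The share of all genes so separated was not counted, and 2 arrays against 2 separate easily, so this order is only a description. The second Lss probe set went the other way, at 6.97 and 6.89 in F344lyp against 7.31 in both F344 arrays, as did the second Cyp51 probe set (0.30, adjusted p = 0.329), at 7.10 and 7.16 against 6.91 and 6.75. The second Idi1 probe set overlapped, at 6.12 and 7.34 against 6.61 and 6.55. On those arrays the mesothelial marker mean was 7.75 to 8.03 against 7.00 to 7.02, and the acinar mean 12.63 to 12.84 against 12.06 to 12.26. The difference between the lyp effects in JB and in F344 was called for 0 of 7 by limma, with 1 at an unadjusted p under 0.05 (Dhcr7, -1.06, SE 0.42, adjusted p = 0.576). Over all genes 0.478% were called for it, and 1234 of 14217 were at an unadjusted p under 0.05.

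Taking the 3 BB groups against the 2 F344 groups, 4 of the 7 genes were called lower: Sqle (-1.06, SE 0.12, adjusted p = 0.000155), Lss (-0.64, SE 0.11, adjusted p = 0.00161), Fdft1 (-0.49, SE 0.10, adjusted p = 0.00476) and Idi1 (-0.30, SE 0.10, adjusted p = 0.0429), where 24.6% of all genes were called lower and 13.3% higher. The BB and F344 arrays overlapped for all 7 on their brightest probe sets. Dhcr7 stood at -0.52 (adjusted p = 0.0632), Cyp51 at 0.28 (adjusted p = 0.087) and Insig1 at 0.06 (adjusted p = 0.825). The second Cyp51 probe set went the other way and was called lower (-0.61, adjusted p = 0.000621), with no overlap between BB and F344 arrays. The second probe sets of Lss, Idi1 and Fdft1 were not called (adjusted p = 0.0595, 0.149 and 0.166). The Cyp51 values below are those of its brightest probe set. Without the DR+/+ arrays 2 of the 7 were called, Sqle lower and Cyp51 higher (0.66, adjusted p = 0.00169), while Idi1 stood at -0.02, Fdft1 at -0.32 (adjusted p = 0.0597) and Lss at -0.35 (adjusted p = 0.0807). The error of this comparison leaves out the spread between groups of 1 side, and with the group as a random block 0 of the 7 were called (Sqle adjusted p = 0.19). With the Gapdh difference as a covariate 0 were called too (Sqle -1.45, adjusted p = 0.747). Idi1 was not called when DR+/+ replicate 1 (adjusted p = 0.0947), JB replicate 1 (0.0845), JBlyp/lyp replicate 1 (0.066), JBlyp/lyp replicate 2 (0.0511), F344 replicate 1 (0.115), F344 replicate 2 (0.138) or F344lyp replicate 2 (0.158) was left out. Cyp51 was called higher without DR+/+ replicate 1 (0.37, adjusted p = 0.0144), and Dhcr7 lower without JB replicate 1 (-0.67, adjusted p = 0.0085) or JBlyp/lyp replicate 1 (-0.63, adjusted p = 0.0162).

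The genes were then compared with each other. Centring each gene on its own mean and averaging the 7 gave -0.81 and -0.58 in DR+/+, 0.08 and 0.12 in JB, 0.11 and 0.16 in JBlyp/lyp, 0.03 and 0.08 in F344, and 0.33 and 0.46 in F344lyp. Both DR+/+ arrays were low and both F344lyp arrays high, with the other 6 between. The correlation of each gene with the mean of the others over the 10 arrays was 0.976 for Idi1, 0.924 for Sqle, 0.9 for Lss, 0.79 for Fdft1, 0.732 for Dhcr7, 0.464 for Cyp51 and -0.166 for Insig1. Over the 8 arrays without DR+/+ it was 0.786 for Idi1, 0.705 for Lss, 0.518 for Fdft1, 0.452 for Sqle, 0.303 for Insig1, 0.097 for Dhcr7 and -0.668 for Cyp51. The shared course of Dhcr7 and Cyp51 with the rest therefore rested on the DR+/+ arrays. These are descriptions over arrays that share groups. The averaged level correlated with the beta cell marker mean at 0.919 over 10 arrays and -0.196 over 8, with the endothelial mean at -0.941 and -0.458, with the acinar mean at 0.802 and 0.555, and with the Gapdh difference at -0.535 and -0.509. With the mesothelial mean it turned from -0.78 to 0.94, and with the stellate and fibroblast mean from -0.864 to 0.806.

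**Figure D3:**
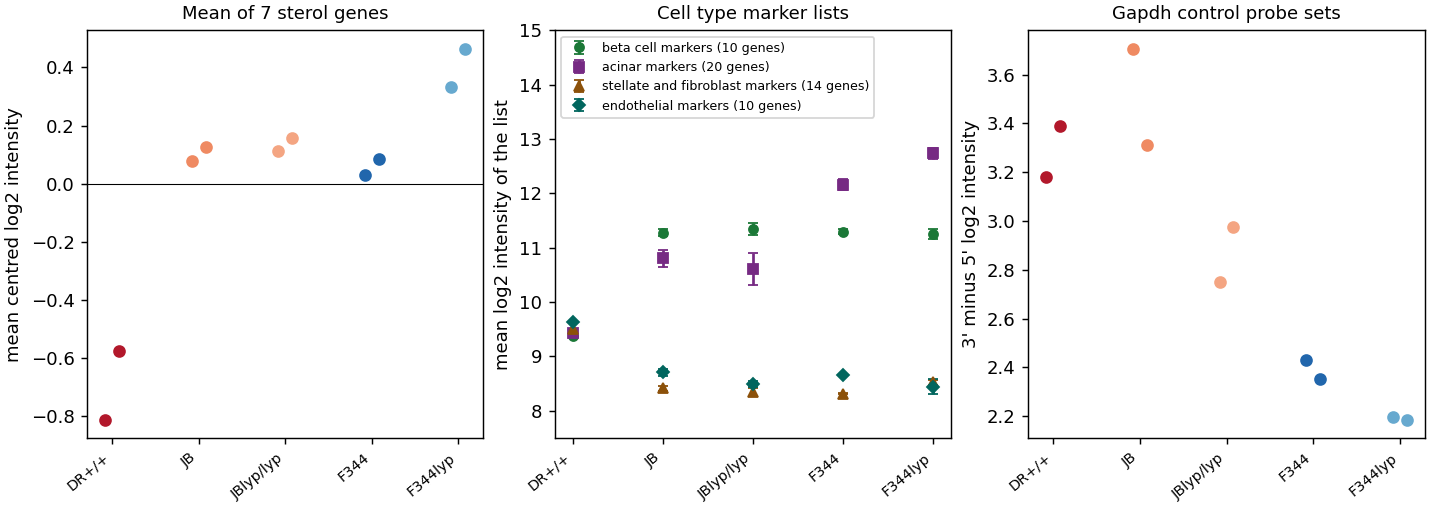
Left, the mean of the 7 centred log2 levels on each array. Middle, the group mean of 4 marker lists (log2 intensity), with bars from the lower to the higher array. Right, the 3′ minus 5′ log2 difference of the Gapdh control probe sets on each array. DR+/+ is lowest on the left (-0.81 and -0.58) and has the lowest beta cell (9.36 to 9.39) and acinar means and the highest endothelial and stellate means, while all BB arrays (2.75 or more) exceed the F344 arrays (2.43 or less) on the right.

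The pathway lists are read beside the shares of all genes, which in DR+/+ were 23.8% lower and 16.3% higher against F344 and 18.4% lower and 15.5% higher against JB. The regulators of the pathway were read from a list of 11 measured genes of 12 listed. Srebf2, the transcription factor of sterol synthesis, had log2 levels of 7.78 and 7.69 in DR+/+, 9.05 and 8.85 in JB, 9.12 and 9.13 in JBlyp/lyp, 8.95 and 8.87 in F344, and 9.27 and 9.16 in F344lyp. Scap, its escort, had 7.21 and 6.62 in DR+/+, 8.86 and 8.24 in JB, 8.88 and 8.27 in JBlyp/lyp, 8.24 and 8.09 in F344, and 8.44 and 8.57 in F344lyp. For both, DR+/+ lay below all other arrays. Of the 11, 4 (36.4%) fell in DR+/+ against F344: Scap (-1.25, adjusted p = 0.00544), Srebf2 (-1.18, SE 0.13, adjusted p = 0.000129), the site 1 protease Mbtps1 (-1.06, adjusted p = 0.00235) and Ubxn4 (-0.60, adjusted p = 0.00725), which acts in degradation at the endoplasmic reticulum. The same 4 fell against JB (Scap -1.63, Srebf2 -1.21, Mbtps1 -1.15 and Ubxn4 -1.13). The medians of the list were -0.35 and -0.33, on the brightest probe sets. Srebf1, the related factor of fatty acid synthesis, was not called (-0.36, adjusted p = 0.391, against F344), nor was Insig2, the relative of Insig1 (0.02, adjusted p = 0.95). Second probe sets of these 4 regulators did not all match the first. Against F344, that of Insig2 was called lower in DR+/+ (-0.60, adjusted p = 0.0272) and that of Srebf1 higher (0.59, adjusted p = 0.0105). Those of Scap and Srebf2 were dim. That of Scap, at 3.58 in DR+/+ and 4.16 in F344, was called lower (-0.58, adjusted p = 0.0367). That of Srebf2, at 3.80 in DR+/+ and 3.45 in F344, was not called (0.34, adjusted p = 0.129). Against JB, 0 of these 4 were called by limma, with 1 (Scap) at an unadjusted p under 0.05, as were 6270 of all 14217 genes. Between JB and F344, Rnf145 (0.55), a ubiquitin ligase of the sterol response, and Ubxn4 (0.53) were called higher, and between JBlyp/lyp and F344lyp Rnf145 was (0.67).

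Other enzymes of sterol synthesis (12 measured of 15 listed) included 6 (50%) that fell and 1 (8.33%) that rose in DR+/+ against F344, with a median of -0.54. The falls were Sc5d, the sterol desaturase (-1.82, SE 0.24, adjusted p = 0.000333), Tm7sf2, a sterol reductase (-1.63, SE 0.15, adjusted p = 3.14e-05), Mvd (-1.36) and Mvk (-1.33), which decarboxylate and phosphorylate mevalonate intermediates, Fdps (-0.66) and Ebp (-0.51). The rise was Lbr (0.71, adjusted p = 0.0136), a nuclear envelope protein with sterol reductase activity. Against JB, Sc5d (-1.59), Tm7sf2 (-1.55), Mvd (-0.83) and Acat2 (-0.75) fell and Lbr (0.70) rose. In this list the JB and JBlyp/lyp groups were also below their F344 counterparts in some steps. Pmvk (-0.97, adjusted p = 0.0126), Mvk (-0.83, adjusted p = 0.0132) and Ebp (-0.62, adjusted p = 0.0404) fell in JB, with a median of -0.16 over the 12. Mvd (-0.71), Ebp (-0.65) and Mvk (-0.64) fell in JBlyp/lyp, with a median of -0.33. Over all 3 BB groups, 7 of the 12 were called lower, among them Mvk (-0.92), Mvd (-0.89), Tm7sf2 (-0.69) and Ebp (-0.64). Of all genes, 24.6% were called lower there and 13.3% higher. Tm7sf2 was -1.63 in DR+/+, but not called in JB (-0.09) or JBlyp/lyp (-0.26) against their F344 counterparts. When the group was a random block, the probe sets called over the whole array dropped from 10300 to 959. Calls of the 12 under that block are not given here.

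Uptake and intracellular transport of cholesterol (11 measured of 16 listed) moved in both directions in DR+/+. Against F344, 2 rose (18.2%) and 5 fell (45.5%). The rises were Mylip, a ligase that marks lipoprotein receptors for degradation (2.46, SE 0.17, adjusted p = 9.24e-06), and Stard4, a sterol carrier (1.55, adjusted p = 0.000207). The falls with the largest differences were Npc2, which moves cholesterol out of lysosomes (-1.42, adjusted p = 6.77e-05), and Stard5 (-1.32, adjusted p = 0.0351), and the receptors Vldlr (-0.88, adjusted p = 0.00204) and Lrp8 (-0.75) fell as well. Against JB, 3 rose (27.3%) and 4 fell (36.4%), with Mylip at 2.03, Lrp8 at -1.19 and Vldlr at -1.05, and with Stard4 again among the rises. The medians were -0.37 and -0.12. Lipa, the lysosomal lipase, fell in JB against F344 (-1.30) and in JBlyp/lyp against F344lyp (-0.60), with Npc2 (-0.58) falling in the former and Stard3 (-0.79) in the latter. Mylip was also the gene of these pathway lists called for lyp in F344 (0.86, adjusted p = 0.0482).

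Efflux and storage genes (11 measured of 12 listed) had 4 falls (36.4%) and 2 rises (18.2%) in DR+/+ against F344. Apoe, a carrier of cholesterol in lipoproteins (-2.37), Nr1h2 (-1.78), Soat1, which esterifies cholesterol (-1.32), and Abcg1, a cholesterol exporter (-1.07), fell, and the oxysterol receptor gene Nr1h3 (0.91) and Ch25h (0.79) rose. Against JB 3 rose (27.3%) and 2 fell (18.2%), led by Nr1h3 (1.68), Cyp27a1 (0.99), Abcg1 (-0.95) and Lcat (0.92). Apoe fell in JB against F344 (-2.18) and in JBlyp/lyp against F344lyp (-1.82). Nr1h3, which rose in DR+/+, fell in JB (-0.77) and JBlyp/lyp (-0.80) against their F344 counterparts, and Lcat (-1.29) and Cyp27a1 (-0.86) fell in JBlyp/lyp. The falls numbered 3 of 11 in JB (27.3%) and 4 of 11 in JBlyp/lyp (36.4%). Apoe is also abundant in macrophages, and the mean of 12 macrophage markers was 5.13 to 5.74 in the BB arrays and 6.18 to 6.64 in the F344 arrays. The part of macrophages in the Apoe differences was not tested.

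Fatty acid synthesis (17 measured of 17 listed), which Srebf1 controls, had 9 falls (52.9%) and 2 rises (11.8%) in DR+/+ against F344 and 7 falls (41.2%) and 2 rises (11.8%) against JB, with medians of -0.51 and -0.46. Acly, which supplies cytosolic acetyl-CoA (-1.71, adjusted p = 2.39e-05), Fasn (-1.36), Me1 (-1.31) and Elovl6 (-1.18) fell against F344, and Elovl5 (1.18) and the desaturase Scd (1.14) rose. Against JB the largest were Acly (-1.87), Fasn (-1.23), Me1 (-1.23) and Scd2 (-1.17). In JBlyp/lyp against F344lyp, 1 of the 17 was called, Lpin1 (0.85). In JB against F344 limma called 0, with 4 at an unadjusted p under 0.05, as were 3960 of all 14217 genes. The isoprenoid branch, which uses farnesyl pyrophosphate for protein prenylation and ubiquinone (11 measured of 12 listed), had 2 falls (18.2%) and 1 rise (9.09%) in DR+/+ against F344 and 2 falls (18.2%) against JB. Against F344, Fntb (-1.66) and Fnta (-0.46), the subunits of farnesyltransferase, fell in DR+/+ and Pggt1b (1.10) rose, and Fntb (-0.75) and Fnta (-0.54) fell against JB. Pggt1b also rose in JB (0.83) and JBlyp/lyp (0.81) against their F344 counterparts. The shifted marker levels of the DR+/+ arrays stand beside each of these lists, and their part was not tested.

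**Figure D4:**
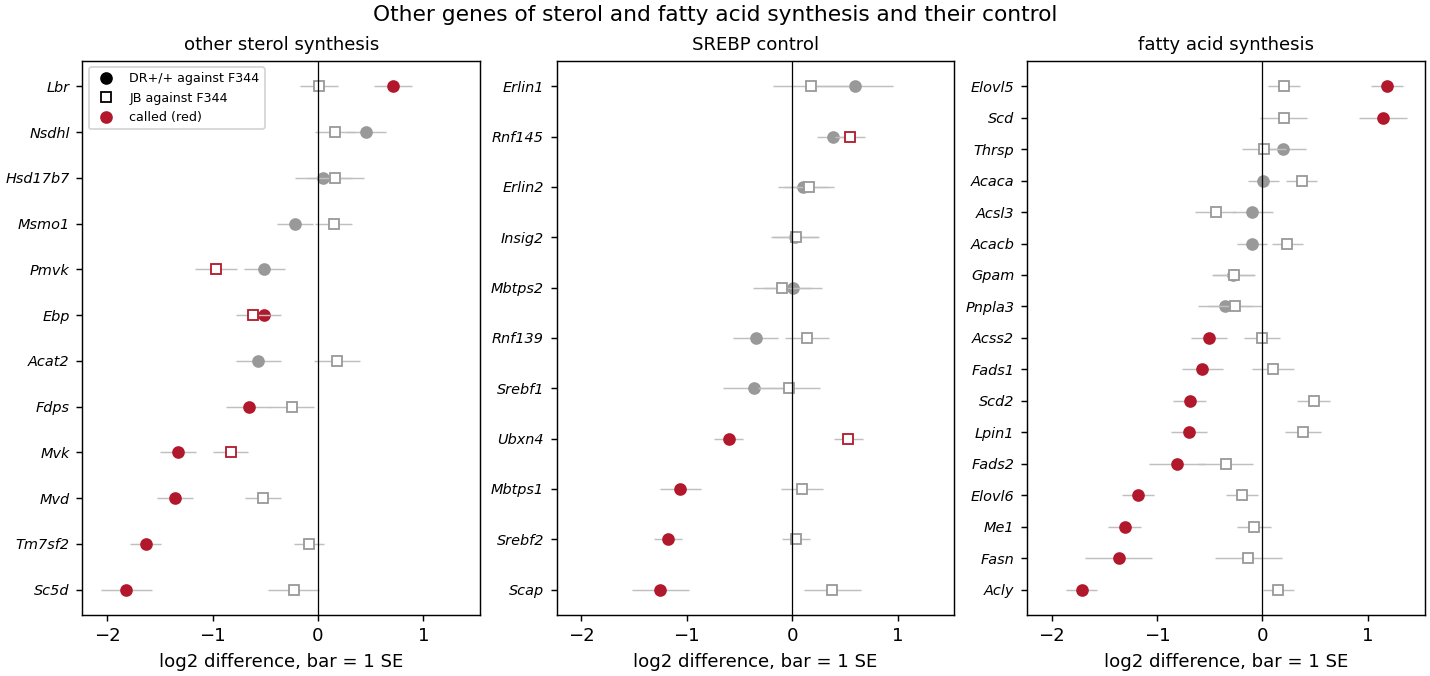
Log2 differences (x axis, bars of 1 standard error) of the measured genes of 3 lists (y axis): other sterol synthesis, SREBP control and fatty acid synthesis. Circles are DR+/+ against F344 and squares JB against F344, which share the F344 arrays, red where called at an adjusted p under 0.05 and grey where not. The red circles run from Sc5d at -1.82 to Lbr at 0.71 in the first list, from Scap at -1.25 to Ubxn4 at -0.60 in the second and from Acly at -1.71 to Elovl5 at 1.18 in the third, while few squares are red.

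By likeness to the averaged course of the 7, among 8628 genes with a mean of at least 6, the closest were Cptp (correlation 0.989), Tmem150a (0.989), Serpini1 (0.986), Tent5c (0.983), Mageh1 (0.981) and Bhlha15 (0.979), over 10 arrays and with no test. Over the 8 arrays without DR+/+ the values were 0.948, 0.917, 0.942, 0.897, 0.854 and 0.851 in the same order. Bhlha15 is also a member of the acinar marker list. Serpini1, an inhibitor of serine proteases secreted by nerve and endocrine cells, had group means of 5.95 in DR+/+, 8.08 in JB, 8.16 in JBlyp/lyp, 8.22 in F344 and 8.97 in F344lyp. Cptp, a transfer protein for ceramide phosphate, had 6.88 in DR+/+, 7.73 in JB, 7.81 in JBlyp/lyp, 7.76 in F344 and 8.19 in F344lyp. Both were lowest in DR+/+ and highest in F344lyp, an order that follows from their choice by likeness to the averaged course. The arrays without DR+/+ were also among those used for that choice.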

How the data were processed

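The table deposited by the authors holds log2 intensities, summarised by probe set with RMA after GCOS, as the submitters' processing notes name them. Their versions were not given in the sources used here. Array medians lay between 5.39 and 5.44, and replicates correlated at 0.9813 to 0.9965. Of 31099 probe sets, 57 controls were set aside and 31042 tested, with no filter on dim ones. In limma 3.58.1 (R 4.3.3) a mean per group was fitted to all 10 arrays, and contrasts were tested with eBayes (residual degrees of freedom 5, prior 4.72). The fit was tested on simulated data with independent noise and without the marker and Gapdh shifts of these arrays. That test therefore cannot say how those shifts affect the calls. The array's annotation gave the symbols (1 symbol for 20826 probe sets, several for 436, none for 9780), of which 20758 were found in RefSeq GRCr8. The 7 genes and all lists were chosen with earlier results of these data known. All 7 are named, and of each pathway list up to 4 called genes with the largest difference per comparison (Lbr, Fdps, Ebp, Vldlr, Lrp8, Nr1h3, Ch25h, Elovl6 and Scd against F344 and Lbr against JB were named after their values were seen), plus Srebf1, Srebf2, Scap and Insig2. Alternatives were the replicate number as a block, quantile normalization, a mean log2 minimum of 6, compared groups only, a prior variance by level, the mean of a gene's probe sets, the Gapdh difference as a covariate, leaving out arrays and, added after the data were seen, the other probe set of a gene. Figures were drawn with matplotlib 3.10.9.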

Additional observations from a re-analysis of the deposited data

How the results depend on the processing

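With 2 arrays per group, their number limits the precision. Most of the single gene results were not called as reported and so had no call to lose. Of 560 values for single genes with 1 array left out, 516 kept their side of the threshold, 33 lost a call, 11 gained one and 0 called values reversed, and 24 uncalled values changed sign. Of 438 under other alternatives the numbers were 375, 46, 12, 5 and 23.

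The counts of called genes with 1 array left out ranged from 0 to 1 for JB against F344, 0 to 2 for JBlyp/lyp against F344lyp, 3 to 6 for DR+/+ against F344, 4 to 6 for DR+/+ against JB and 3 to 4 for BB against F344, and stayed at 0 for the 3 lyp comparisons. For JB against F344, reported at 1, the count was 0 with quantile normalization, a prior variance by level, the mean of a gene's probe sets, the Gapdh covariate or the other probe set. For JBlyp/lyp against F344lyp, reported at 2, it was 1 with quantile normalization, a prior variance by level, the mean of probe sets or the other probe set, and 0 with the compared groups only or the Gapdh covariate. For DR+/+ against F344, reported at 4, it was 0 with the Gapdh covariate, and for DR+/+ against JB, reported at 6, it was 3 with the other probe set. For lyp in F344 it was 1 (Dhcr7) with the compared groups only. For BB against F344, reported at 4, it was 0 with the Gapdh covariate, with the group as a random block or with 2 means and no group term, and 2 without the DR+/+ arrays or with the other probe set.

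The other probe set reversed Cyp51 for JB against F344 (-0.35), JBlyp/lyp against F344lyp (-0.52) and BB against F344 (-0.61), and Fdft1 for DR+/+ against F344 (0.077) and against JB (0.027), and the cause was not tested. With the Gapdh covariate, the probe sets called over the whole array also dropped, from 3595 to 1 for JB against F344, from 4383 to 103 for JBlyp/lyp against F344lyp, from 10206 to 90 for DR+/+ against F344, from 8793 to 6103 for DR+/+ against JB and from 10300 to 8 for BB against F344.

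The labels do not tie same-numbered replicates together, and the correlations of their deviations ran from -0.101 to 0.652 (JB with JBlyp/lyp), with 5 of 10 pairs of groups over 0.1 and none of these 5 with DR+/+, so a shared effect of the number was not shown for all groups and the numbers were not taken as pairs. With the replicate number as a block the count was 2 for JB against F344 and 3 for JBlyp/lyp against F344lyp, where Sqle was called too (adjusted p = 0.0331 and 0.0334), 6 for DR+/+ against F344, where Cyp51 (adjusted p = 0.041) and Dhcr7 (adjusted p = 0.0402) were called too, 6 for DR+/+ against JB and 5 for BB against F344, with Dhcr7 (adjusted p = 0.0396).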
